A study of Saccharomyces cerevisiae with 16 samples.

Results

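The mRNAs described here encode 60 ribosome biogenesis factors of budding yeast, chosen by locus tag as nucleolar assembly factors (NOP, NOC, UTP, RRP, IMP and related genes), out of 5818 genes in a deposited table of 40S ribosome footprints. The rule used no footprint value, but the genes were chosen with earlier results of these data known. All 60 were found in the table. The table counts footprints in 5 areas of each transcript: the 5′ UTR (leader), the start codon, the coding region, the stop codon and the 3′ UTR. It holds 3 libraries of 40S subunits selected through a tagged initiation factor and 3 libraries of unselected 40S subunits.

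Cells were grown in YPD at 30 °C and fixed with formaldehyde, so that ribosomes and their factors stayed on the mRNA. RNase I trimmed the mRNA to the stretches that ribosomes covered, and small subunits (40S) were separated from whole ribosomes (80S). For the factor-bound libraries, 40S complexes were then immunoprecipitated through a FLAG tag. The eIF3a-bound library came from strain SY182 (eIF3a/TIF32-FLAG), the eIF3c-bound library from H25 (eIF3c/NIP1-FLAG) and the eIF2β-bound library from SY194 (eIF2beta/SUI3-FLAG), with 1 library for each factor. The unselected libraries 1-1, 1-2 and 1-3 came from the same 3 strains in that order, so the unselected cells carried the tags too, and no untagged strain is among these groups. The count table heads the last factor-bound column eIF2α where the labels name eIF2β. That column was read as eIF2β-bound, since no other selected 40S library has number 1-3.

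Ribosome assembly starts in the nucleolus, where RNA polymerase I transcribes the ribosomal RNA precursor. Box C/D and box H/ACA particles modify this RNA, and the small-subunit processome, a very large particle built around U3 snoRNA, folds and cuts it towards the 40S subunit. Separate sets of RNA-binding proteins, helicases, GTPases and AAA ATPases build the 60S subunit. On the mRNAs of all these factors, a 40S subunit carrying eIF2 and eIF3 scans the leader to the start codon, where the 60S subunit joins and elongation begins.

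The factor-bound libraries held 3403297 (eIF3a), 4440991 (eIF3c) and 4486412 (eIF2β) counts, and the unselected libraries held 2800652, 1595793 and 1891531. The 60 genes took 1.19%, 0.996% and 1.202% of the factor-bound counts, against 1.15%, 1.01% and 1.09% of the unselected counts. Summed over the 60 genes, 40S footprints thus made up a like share of both kinds of library, and the groups overlapped. NOP1 and SNU13 weighed heavily in this sum, and more so in factor-bound libraries. Leaving out this pair, picked after the counts were seen, the other genes took a smaller share of every factor-bound library than of any unselected one. Each of the 3 libraries of a group came from another strain, so the spread behind the p-values holds differences between strains and, among factor-bound libraries, between the 3 factors. Whether both libraries of a strain came from the same culture is not stated.

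The genes were long for yeast and well occupied. Their median gene length (start to stop codon, with introns) was 1801.5 nt, against 1215 nt over all 5776 genes with a length, and ran between 177 nt for NOP10 and 14733 nt for REA1, the longest gene in the table. The level of unselected 40S footprints in coding regions, as RPKM with the coding-region total as library size, had a median of 78.1 over the 60 genes and 33.8 over all genes. The highest levels were those of SNU13 (1811.5), NOP10 (1160.9) and NOP1 (929). SNU13 (YEL026W) stood at 2275, 2301 and 2038 RPKM in the factor-bound libraries and at 2050, 1561 and 1823 in the unselected ones, and NOP10 at 2359, 2287 and 2183 against 1227, 1002 and 1253. The lowest unselected levels were those of SPB4 (31.1), REA1 (31.2) and UTP20 (32.3), which did not differ beyond their spread. Even these 3 lay close to the median of all genes.

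Summed over the 60 genes, footprints lay nearer to the start of the transcript in factor-bound libraries. Leaders held 35.5% ± 5.39 of the genes' counts in factor-bound libraries and 15.4% ± 1.19 in unselected libraries (SD, n = 3 each), 2.31 times as much. Over all genes the same shares were 20.9% and 9.52%, 2.19 times as much. Coding regions held 14.5% ± 2.91 of the 60 genes' counts with a factor bound and 36.2% ± 2.42 without selection. Stop codons held 0.528% ± 0.144 and 2.33% ± 0.195, and 3′ UTRs held 1.03% ± 0.269 and 2.53% ± 0.308. In these 4 areas every factor-bound library lay on the same side of every unselected library. Two-sided exact permutation tests gave p = 0.1, the smallest value that 3 libraries against 3 allow. The groups did not overlap over all genes either. There coding regions held 15.2% and 30.6%, stop codons 0.674% and 2.24%, and 3′ UTRs 1.46% and 3.30%. Start codons held 48.4% ± 2.49 and 43.5% ± 2.87 of the 60 genes' counts, where the groups overlapped (exact permutation p = 0.2). Over all genes they held 61.8% and 54.3%, without overlap. Within each strain the start codon share was higher with the factor bound, at 49.1% against 46.0% with eIF3a, 50.5% against 44.2% with eIF3c and 45.7% against 40.4% with eIF2β. A paired two-sided exact permutation test gave p = 0.25 in every area, the smallest value that 3 pairs allow.

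The leader sum was mostly that of a pair of genes of the box C/D particle, the enzyme complex that methylates ribosomal RNA. NOP1 (YDL014W), the methyltransferase itself, had 5435, 5547 and 9152 leader counts in the eIF3a-, eIF3c- and eIF2β-bound libraries, against 2104, 830 and 1384 in unselected libraries. SNU13, which binds the kink-turn of the guide RNA, had 4979, 6022 and 9406 against 1747, 765 and 1257. Together they made up 80.9% ± 2.04 of the 60 genes' leader counts in factor-bound libraries and 74.9% ± 3.99 in unselected ones. Without this pair, a choice made after their counts were seen, leaders of the other 58 genes held 13.1% ± 1.95 with a factor bound and 5.68% ± 0.450 without selection. Start codons then held 61.0% ± 1.68 and 41.4% ± 2.97 and coding regions 23.6% ± 2.75 and 47.0% ± 2.83. The groups no longer overlapped at start codons (exact permutation p = 0.1). SNU13 was the 1 gene of the 60 with a lower start codon share without overlap. Removing it favoured this separation, so the p-value is a description only.

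**Figure D1:**
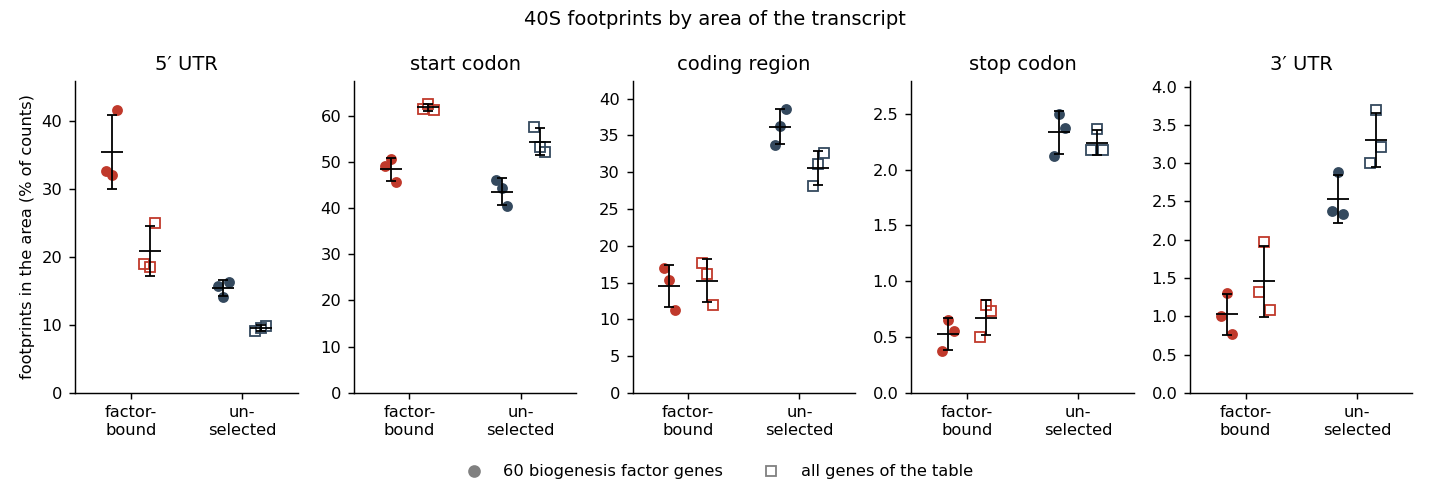
Share of 40S footprint counts (percent, vertical axis from 0) in each of the 5 transcript areas, for the 60 biogenesis factor genes (filled circles) and all genes of the table (open squares). Each point is 1 library, with factor-bound libraries in red on the left and unselected libraries in dark blue on the right, and bars are mean ± SD of 3 libraries. The 60 genes' leader share was 35.5% against 15.4%, and their coding-region share 14.5% against 36.2%.

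Gene by gene, the move towards the start codon was widespread. The start codon share of a gene's own footprints had a median over the 60 genes of 59.6% in factor-bound libraries and 34.9% in unselected libraries, against 49.0% and 34.3% over the 3470 genes with a mean of at least 50 counts. In 50 of the 60 genes every factor-bound library had a higher start codon share than every unselected library, where 50.8% of the 3470 genes did. In 51 of the 60 every factor-bound library had a lower coding-region share, where 68.7% of the 3470 did. Leader shares were higher without overlap in 34 genes (52.0% of all genes), stop codon shares lower in 28 (43.3%) and 3′ UTR shares lower in 23 (36.2%). In the other direction there were 0 genes in each of these 3 areas, where 1.15%, 0.778% and 0.922% of all genes lay. The counts for leaders, stop codons and 3′ UTRs were therefore near those of all genes. The 60 genes are longer than most, and these shares were not compared with genes of like length or count.

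REA1, the AAA ATPase that strips assembly factors off the 60S precursor, showed the shift in a very long gene. Its start codon share was 68.2%, 74.4% and 68.5% with eIF3a, eIF3c and eIF2β bound, against 19.8%, 22.1% and 16.5% in unselected libraries. RRP5, an RNA-binding protein needed for both subunits, had 70.3%, 73.6% and 70.0% against 32.7%, 31.6% and 29.0%. In both genes the groups lay far apart, and most unselected 40S footprints were in the coding region. LTV1, a late 40S factor that leaves the precursor in the cytoplasm, had 83.2%, 80.5% and 83.6% against 57.6%, 48.5% and 48.8%.

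Grouped by role, the 5 GTPases and AAA ATPases of the 60S subunit had a median start codon share of 64.8% with a factor bound and 28.9% without selection, and all 5 were higher without overlap. All 15 nucleolar 60S factors were higher too (medians 61.3% and 37.9%), as were all 6 of the UtpB complex, a scaffold of the processome (49.9% and 27.6%). Of the 6 UtpA genes, which encode the first proteins to bind the nascent precursor, 5 were higher (55.0% and 32.6%). The box H/ACA genes, whose proteins convert uridine to pseudouridine, were high in both groups (65.9% and 60.01%), and 2 of 4 were higher without overlap. Of the box C/D genes 2 of 4 were higher and 1 lower (51.7% and 46.4%). The counts were 3 of 4 for the U3 and Mpp10 proteins (58.6% and 46.3%), 3 of 4 for late 40S factors (51.5% and 40.2%) and 9 of 12 for other processome factors (59.0% and 32.2%), beside the 50.8% of all genes.

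The 10 genes without a higher start codon share were of several kinds. SNU13 was lower without overlap, as were 4.03% of all genes, at 45.0%, 40.0% and 37.9% in factor-bound libraries against 59.4%, 65.3% and 52.9% in unselected ones, while its leader share was 49.4%, 53.7% and 59.0% against 28.7%, 23.6% and 33.4%. NOP1 overlapped at the start codon, with a leader share of 64.1%, 58.2% and 76.4% against 48.1%, 40.9% and 46.5%. CBF5 (YLR175W), the pseudouridine synthase, had a start codon share of 45.5% ± 3.03 against 43.7% ± 3.16, and a leader share of 33.8% ± 4.99 against 7.09% ± 0.701 (SD, n = 3 each). All 3 genes had higher leader shares and lower coding-region shares without overlap. RIO2, a kinase of late 40S maturation, had a leader share of 59.3% ± 5.63 against 47.3% ± 4.07, behind NOP1 alone in factor-bound libraries and the highest of the 60 in unselected ones, and overlapped at the start codon. A deposited list of cap sites covers 3 of the 60 genes and puts the cap 185 nt before the start codon in SNU13, 125 nt in RIO2 and 86 nt in NOP10.

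UTP4 and KRR1 had almost no start codon footprints in either group. UTP4 (YDR324C), a UtpA subunit, had 0, 0 and 1 start codon counts in factor-bound libraries and 0, 1 and 0 in unselected ones, beside 144, 119 and 173 coding-region counts against 175, 90 and 147. Its coding-region share, 98.2% ± 0.558 against 95.3% ± 1.96, was the one coding-region share that was higher without overlap (3.52% of all genes). KRR1, an RNA-binding processome protein, had 4, 5 and 6 start codon counts against 1, 5 and 1. The sources used here do not say how a footprint was assigned to an area. The other genes that overlapped at the start codon were NHP2, MPP10, RCL1 and SOF1.

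**Figure D2:**
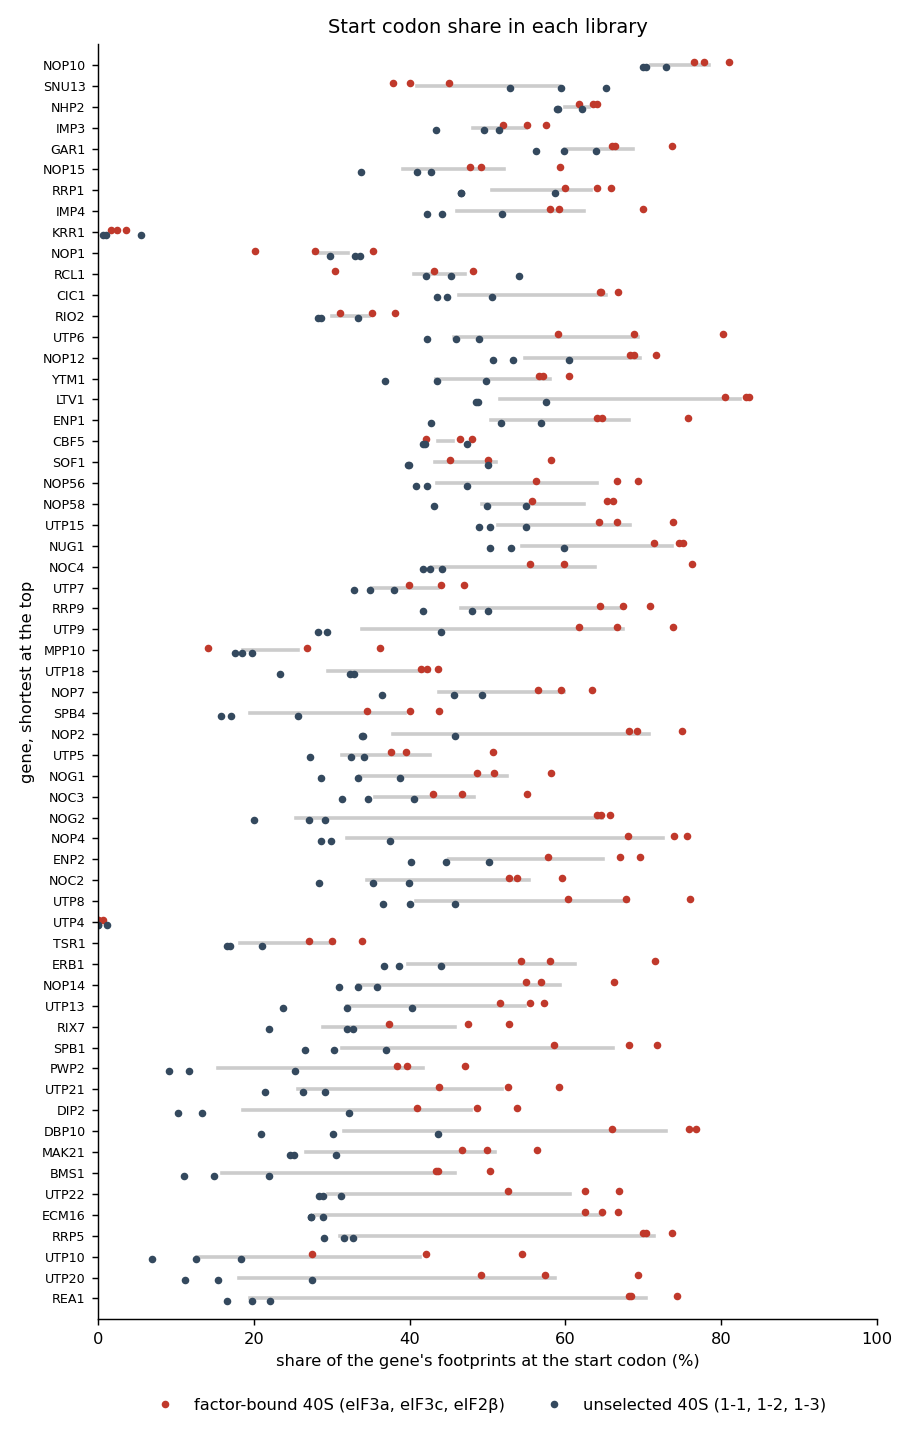
Start codon share of each gene's own footprints (percent, horizontal axis) in the 3 factor-bound libraries (red) and the 3 unselected libraries (dark blue), 1 point per library, with the 60 genes ordered by length and the shortest at the top. Grey bars join the group means. In 50 genes all red points lie to the right of all dark blue points, while SNU13 has them to the left and UTP4 and KRR1 lie near 0.

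The tests that follow ask, within each area, which genes changed relative to the median gene of the area, by the quasi-likelihood test of edgeR, with Benjamini-Hochberg adjustment over all genes tested and a threshold of 0.05. A log2 fold is factor-bound over unselected. Because selection moved whole areas, the reference point matters: with library sizes from all 5 areas together, the median gene stood at 1.02 in leaders, 0.28 at start codons, −1.06 in coding regions, −2.07 at stop codons, −1.22 in 3′ UTRs and 1.34 for start codon over coding region.

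In coding regions, 18 of the 60 genes fell and 4 rose relative to the median gene. Of all 4797 genes tested, 11.8% fell and 14.4% rose. The median log2 fold of the 60 was −0.29, and 40 of 60 lay below 0, where 50.1% of all genes did. Scaled to all areas together, 51 of the 60 fell and 0 rose, where 62.4% and 1.94% of all genes did. Each factor alone was also compared with unselected 40S of the same strain, relative to the median gene. The median log2 ratio of the 60 was −0.34 (eIF3a), −0.28 (eIF3c) and −0.27 (eIF2β). With the 3 factors in that order, 39, 43 and 39 of 60 genes lay below 0, where 50% of all genes lay by construction.

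The largest falls were in very long genes and in LTV1. REA1 (YLR106C, chromosome XII, 349006 to 363738, RefSeq build R64) had 115, 117 and 155 coding-region CPM (the count scaled to the library's total in that area) in the eIF3a-, eIF3c- and eIF2β-bound libraries, against 494, 456 and 431 in unselected libraries. No factor-bound library came near the unselected ones, and the log2 fold was −1.78 (SE 0.21, edgeR adjusted p = 2.57e-04). LTV1 (YKL143W, chromosome XI, 176781 to 178172) had 24.96, 22.3 and 33.6 against 103, 88.7 and 85.8 (log2 fold −1.73, SE 0.28, edgeR adjusted p = 0.00114). LTV1 is 1392 nt long, shorter than the median of the 60. UTP20 (YBL004W, chromosome II, 227636 to 235117), a large helical scaffold protein of the processome, had 81.5, 94.9 and 72.8 against 220, 260 and 244 (−1.48, SE 0.20, edgeR adjusted p = 5.67e-04). RRP5 (YMR229C, chromosome XIII, 725934 to 731123) had 206, 161 and 177 against 538, 442 and 458 (−1.34, SE 0.21, edgeR adjusted p = 0.00104).

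Other falls were in UtpA, in UtpB, among other processome genes and on the 60S side, while 0 of the 4 U3 and Mpp10 genes fell. In UtpA, UTP9 fell by 1.33 and UTP10, a scaffold of 5310 nt, fell by 1.23 on the log2 scale. UTP10 averaged 118 ± 38.4 CPM with a factor bound and 285 ± 30.2 without selection (SD, n = 3 each). In UtpB, PWP2 fell by 1.19 and DIP2 by 0.93, and all 6 members lay below 0, where 50.1% of all genes did. With each library's trend over gene length, smoothed from these counts, as an offset, 4 of these 6 lay below 0 (51.9% of all genes). Among the other processome genes NOP14, the GTPase BMS1 and the helicase ECM16, which releases U3, fell as well. On the 60S side SPB1, a ribosomal RNA methyltransferase, fell by 1.29, MAK21 by 1.01, the helicase DBP10 by 0.99 and NOP2, a cytosine methyltransferase, by 0.94. The GTPases NOG2 and NOG1 fell by 1.03 and 0.92. NOG2 hosts the snoRNA gene SNR191 on the same strand in its span, so its counts may hold fragments of that RNA, and its 1993 nt include an intron. It was the only one of the 60 with an overlapping gene in the reference table.

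CBF5 was the 1 fall among the 8 genes of the snoRNA particles. It had 248, 260 and 243 CPM in factor-bound libraries and 617, 419 and 533 in unselected ones (log2 fold −1.01, SE 0.21, edgeR adjusted p = 0.00397). Its partner NOP10 (YHR072W-A, chromosome VIII, 241664 to 241840) rose, with 418, 405 and 386 against 217, 177 and 222 (1.03, SE 0.20, edgeR adjusted p = 0.00307). CBF5 and NOP10, of the same particle, thus differed in direction relative to the median gene only. Scaled to all areas together, 0 of the 4 box H/ACA genes rose and 3 fell (1.94% and 62.4% of all genes). NOP10 was the highest of these 4, at −0.0285. The box C/D genes did not pass the test: NOP1 had a log2 fold of −0.14 (SE 0.22) and NOP56 of 0.09 (SE 0.24).

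The other rises were in IMP3, KRR1 and RRP1. IMP3 (YHR148W, chromosome VIII, 393534 to 394085), which ties U3 to the precursor, had 188, 175 and 244 CPM with a factor bound and 104, 84.7 and 85.8 without (1.19, SE 0.22, edgeR adjusted p = 0.00233). KRR1 (YCL059C, chromosome III, 22429 to 23379) had 346, 248 and 269 against 179, 145 and 147 (0.94, SE 0.22, edgeR adjusted p = 0.00896). FYV5 ends 143 nt upstream of it on the same strand. RRP1, a 60S factor, had 193, 108 and 233 against 100, 101 and 95.6 (0.91, SE 0.28, edgeR adjusted p = 0.0319), with the eIF3c-bound library only just above the unselected ones. All 4 genes that rose are shorter than 1 kb, and 3 of these 4 lie below 0 when scaled to all areas together (IMP3 is the exception).

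**Figure D3:**
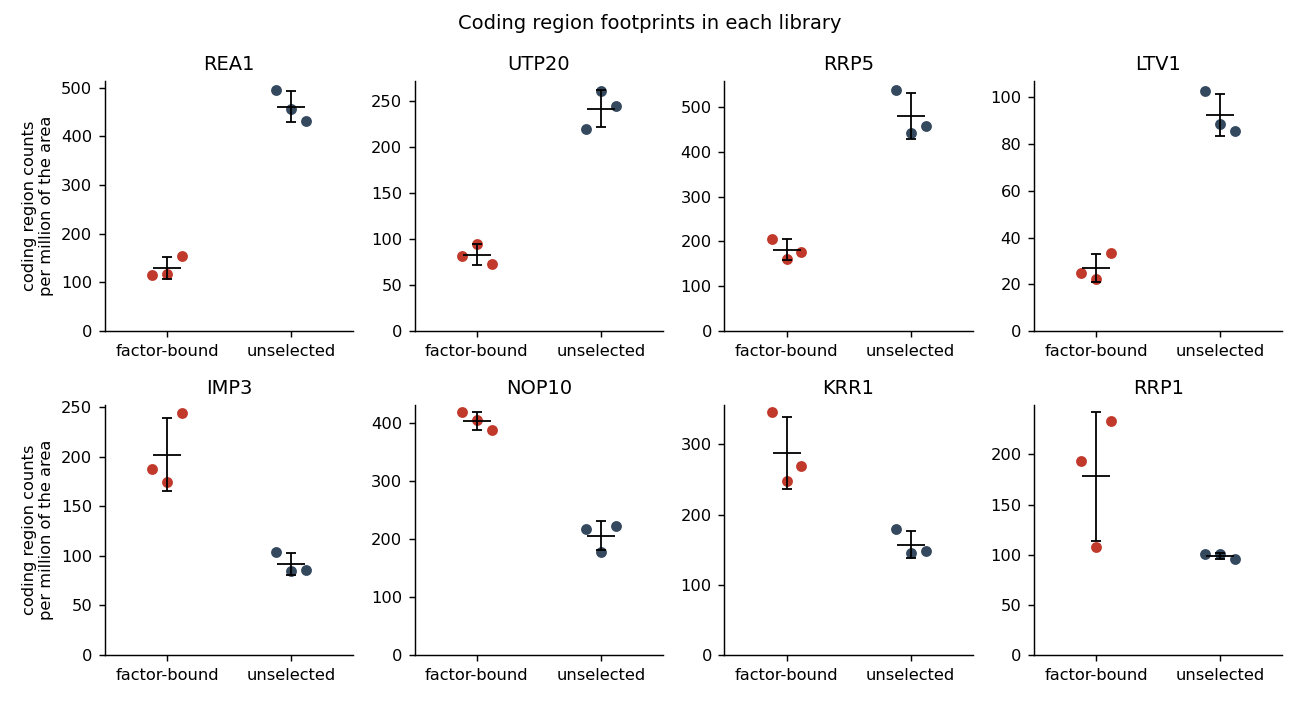
Coding-region CPM, counts scaled to each library's total in the area (vertical axes from 0) for 4 genes that fell (REA1, UTP20, RRP5, LTV1) and the 4 that rose (IMP3, NOP10, KRR1, RRP1). Each point is 1 library, with factor-bound libraries in red on the left and unselected libraries in dark blue on the right, and bars are mean ± SD of 3 libraries. REA1 lies between 115 and 155 with a factor bound and between 431 and 494 without selection.

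Leaving out 1 library at a time left between 15 and 17 falls and between 3 and 7 rises, with 7 rises without the eIF3c-bound library. REA1, LTV1, UTP20, RRP5, UTP9, UTP10, PWP2, NOG2, MAK21, CBF5, DBP10, NOG1 and NOP2 and the rises of IMP3, NOP10 and KRR1 passed in all 6 omissions. BMS1 and RRP1 each passed in 1 of 6, SPB1 and NOP14 in 4, and DIP2 and ECM16 in 5. With the replicate number as a block, 19 fell and 6 rose (17.2% and 19.9% of all genes). NOP4 then fell too (−0.64, edgeR adjusted p = 0.0111), and NOP15 (0.61, 0.0113) and CIC1 (0.65, 0.00747) rose.

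Gene length moved with these changes, among the 60 as among all genes. Over the 60, Pearson's r between log2 length and the coding-region log2 fold was −0.69 (Spearman's rho −0.65), and over 4792 genes it was −0.47 (rho −0.49). This is a description across genes that share the same 6 libraries. Of the 9 genes in the shortest tertile of all genes (78 to 966 nt), 4 rose and 0 fell, against 26.4% and 2.31% of all genes in that tertile. Among 19 genes of medium length, 3 fell and 0 rose (8.40% and 11.8% of all genes of that length). Of the 32 in the longest tertile (1731 nt and above), 0 rose and 15 fell (4.77% and 24.7%). The median log2 folds of the 60 in the 3 tertiles were 0.64, −0.23 and −0.63, against 0.40, −0.01 and −0.44 for all genes.

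A further fit took as offset each library's own smooth trend over log2 gene length, drawn from these same counts over all genes. This flattens the length trend of all genes by construction (Pearson's r −0.00479 over 4792 genes). With this length offset, 7 of the 60 fell and 2 rose (7.03% and 10% of all genes). With the block as well, 12 fell and 8 rose (12.4% and 15.3%). The 7 falls were LTV1 (−1.70, edgeR adjusted p = 0.00250), UTP9 (−1.19), CBF5 (−0.95), NOG2 (−0.82), PWP2 (−0.79), NOP2 (−0.76) and NOG1 (−0.73). The rises were KRR1 (0.76, edgeR adjusted p = 0.0331) and IMP3 (0.72, 0.0350). REA1 then stood at −0.32 (0.331), UTP20 at −0.43 (0.175), RRP5 at −0.50 (0.140) and NOP10 at 0.26 (0.387). The longest genes and the shortest gene thus lost their calls, while LTV1, CBF5 and the 60S GTPases NOG1 and NOG2 kept them. The part of length in the uncorrected values was not tested beyond this fit.

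**Figure D4:**
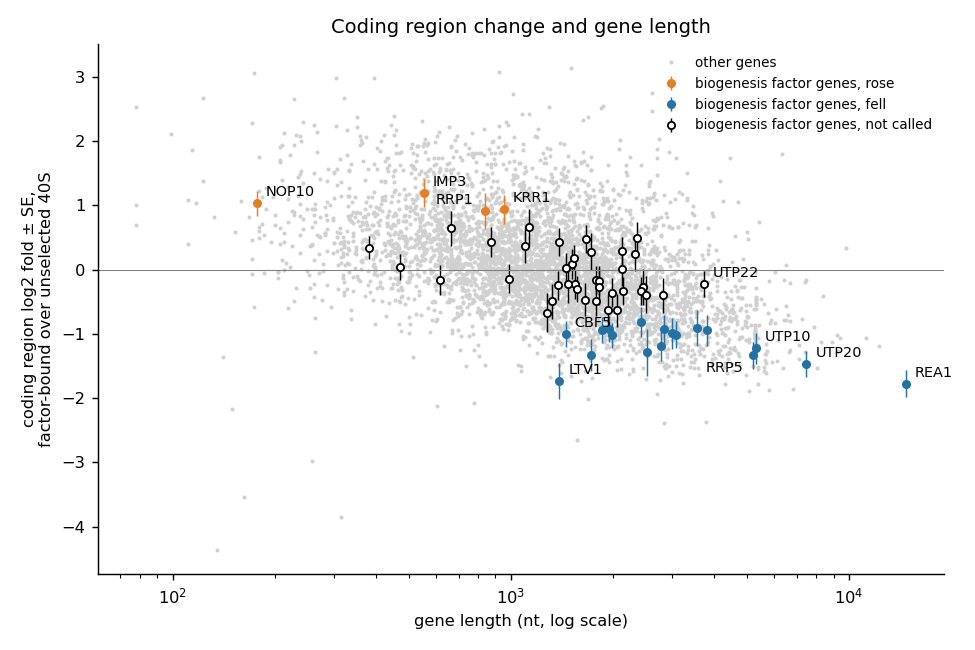
Coding-region log2 fold, factor-bound over unselected 40S (vertical axis), against gene length in nt (horizontal log axis). Grey points are other genes, circles are the 60 biogenesis factor genes with bars of ± SE, orange where they rose, blue where they fell and open where they were not called. REA1 at 14733 nt is lowest (−1.78), LTV1 lies low at 1392 nt, and the 4 rises are among the shortest genes.

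At start codons, 2 of 58 genes tested fell and 0 rose relative to the median gene, where 5.12% of 3868 genes fell and 1.34% rose. The median of the 58 was −0.02. RCL1 (YOL010W), a processome protein that pairs with BMS1, had 24.8, 12.6 and 19.3 start codon CPM in factor-bound libraries and 42.1, 47.0 and 37.6 in unselected ones (log2 fold −1.25, SE 0.28, edgeR adjusted p = 0.0331). CBF5 had 186, 128 and 195 against 358, 255 and 312 (−0.94, SE 0.22, edgeR adjusted p = 0.0381). The groups did not overlap in either gene, but both calls were lost in each of the 6 fits without 1 library. Those fits, like the one above, did not pair the libraries by strain. Scaled to all areas together, 6 genes rose and 0 fell (7.5% and 3.36% of all genes).

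The replicate number, which marks the strain, raised the number of start codon calls. With it as a block, 11 genes fell and 7 rose (16.2% and 12.6% of all genes). The falls were led by RCL1 (−1.25, edgeR adjusted p = 1.84e-05), MPP10 (−1.17, 0.0130), SOF1 (−0.97, 0.00114) and CBF5 (−0.95, 6.18e-10). NOC3, UTP18, UTP15, NOP12, NHP2, ENP1 and NOP58 fell by smaller amounts. The rises were all close in size: NOP4 and NOG2 (0.60 each), RRP5 (0.59), UTP21 (0.58), ECM16 (0.57), RIO2 (0.55) and UTP22 (0.54). Among the other genes followed in every area, without the block, REA1 stood at 0.41 (SE 0.22, edgeR adjusted p = 0.273), NOP1 at 0.22, NOP2 at 0.20, IMP3 at 0.10, NOP56 at 0.09 and UTP10 at −0.30, and none passed.

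Setting start codon against coding region within each gene removes the gene's overall level. This ratio rose in 16 of 58 genes and fell in 6, where 11.5% of 3776 genes rose and 15.4% fell. On simulated data this test made a larger share of false calls than the tests of single areas. The largest rises were in REA1 (log2 fold 2.19, SE 0.26, edgeR adjusted p = 1.5e-05), RRP5 (1.91, SE 0.22), NOG2 (1.597), PWP2 (1.57), UTP20 (1.55), LTV1 (1.497), ECM16 (1.49), DBP10 (1.35), RIO2 (1.23) and NOP4 (1.22). REA1 had 182, 287 and 226 start codon counts against 69, 84 and 83 in the coding region with a factor bound. In unselected libraries it had 98, 66 and 54 at the start codon against 389, 226 and 266 in the coding region. NOP2, MAK21, NOG1, BMS1, NOP14 and UTP22 rose too. By role, 3 of 5 GTPases and AAA ATPases rose, 6 of 11 other processome genes, 2 of 4 late 40S genes and 4 of 15 nucleolar 60S genes, and 0 of the 8 snoRNA particle genes.

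The falls were in RCL1 (−1.67, SE 0.38, edgeR adjusted p = 0.00345), IMP3 (−1.11, SE 0.26), NOP10 (−0.85), RRP1 (−0.85), CIC1 (−0.71) and SNU13 (−0.64). RCL1 had 52, 35 and 53 start codon counts and 41, 57 and 54 coding-region counts with a factor bound. Without selection it had 68, 40 and 37 and 64, 26 and 40. Scaled to all areas together, 50 genes rose and 0 fell (66% and 1.4% of all genes), and of these 6 only RCL1 stayed below 0. Without unselected library 1-1, 1-2 or 1-3 the falls numbered 3 each. CBF5 did not pass (0.00, SE 0.27), since it was lower in both areas, nor did NOP56 (0.03), NOP1 (0.37) or UTP10 (0.93, SE 0.40, edgeR adjusted p = 0.0895). With the block UTP10 rose (1.10, 0.00402), as did UTP9, UTP21 and SPB1, and NOP58 fell (−0.56, 0.0316). In the tertiles by length, 0 of 8 short, 2 of 19 medium and 14 of 31 long genes rose (1.94%, 10.1% and 24.9% of all genes), and 4, 2 and 0 fell (29.3%, 11.3% and 2.76%).

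**Figure D5:**
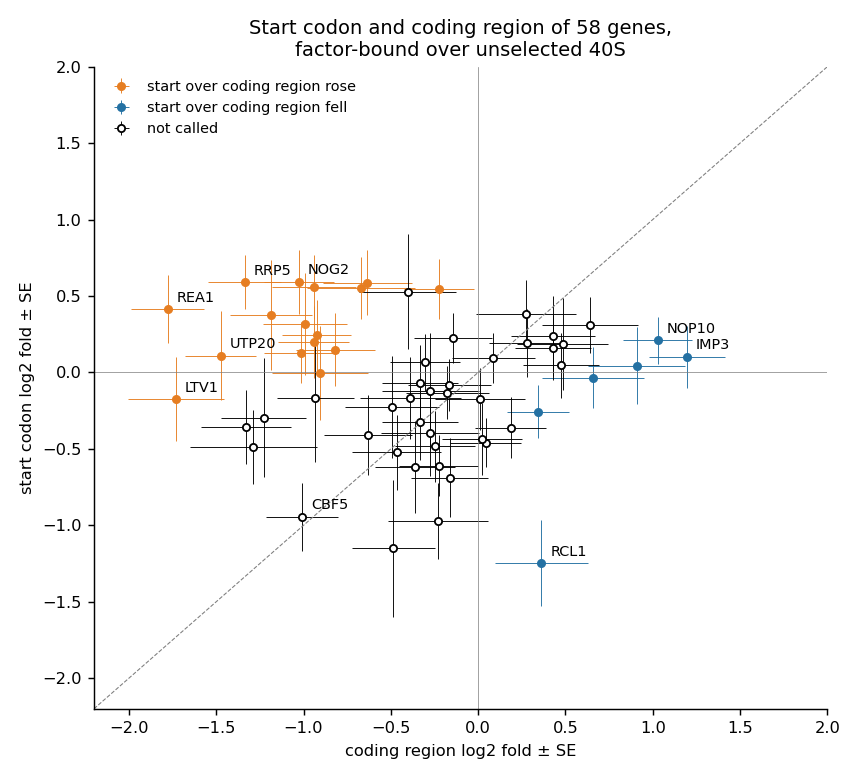
Start codon log2 fold (vertical axis) against coding-region log2 fold (horizontal axis), both factor-bound over unselected 40S with bars of ± SE, for 58 biogenesis factor genes. Orange marks genes whose start codon over coding region ratio rose, blue those where it fell, open circles the rest, and the dashed line equal folds. REA1 and RRP5 lie far to the left with start codon folds above 0, CBF5 lies near the line, and RCL1 lies far below it.

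In leaders, 0 of the 34 genes with enough footprints to test rose or fell relative to the median gene, where 0% of 2036 genes rose and 1.67% fell. At an unadjusted p under 0.05, 1 gene was higher and 2 lower, and DESeq2 called 0. The 2.31-fold larger leader share given above is on the scale of whole libraries, and with library sizes from all areas 14 of the 34 rose and 0 fell (57.4% and 1.33% of all genes). SNU13 had a relative log2 fold of 0.43 (SE 0.19, edgeR adjusted p = 0.451), CBF5 of 0.48 (SE 0.22, 0.468), NOP1 of 0.24 (SE 0.20), NOP2 of 0.19, RRP5 of 0.09 and NOP56 of 0.08. YTM1, part of the NOP7 complex of the 60S precursor, had 81, 77 and 147 leader counts against 56, 43 and 36 (−0.87, SE 0.26, edgeR adjusted p = 0.204). With the block SNU13 rose (0.44, edgeR adjusted p = 0.0445) and YTM1 fell (−0.87, 0.00918), where 1.57% of all genes rose and 5.16% fell. The snoRNA gene SNR8 lies 291 nt upstream of YTM1 on the same strand. IMP3, UTP10 and REA1 had too few leader counts to test, at most 3, 6 and 20 in a library.

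Few genes had enough footprints at stop codons and in 3′ UTRs. Of 11 genes tested at stop codons 2 rose and 1 fell (14.3% and 10.3% of 497 genes). CIC1, a 60S factor, had 2, 2 and 6 counts in factor-bound libraries and 74, 57 and 47 in unselected ones (log2 fold −3.05, SE 0.46, edgeR adjusted p = 3.73e-04), the lowest fold of any gene tested there. NOP7 had 18, 25 and 50 against 18, 9 and 15, in libraries of unequal size (2.23, SE 0.41, edgeR adjusted p = 0.00146). That rise is relative to the median gene of the area. Scaled to all areas together NOP7 stood at 0.15 and was not called, and its stop codon share overlapped between groups (5.17% ± 2.09 against 3.77% ± 0.425). YTM1 had 6, 12 and 11 against 8, 4 and 9 (1.52, SE 0.46, edgeR adjusted p = 0.0275), a call lost in each of the 6 fits without 1 library. Omissions left 1 or 2 rises and 1 or 2 falls, with 1 rise without the eIF3c-bound library, the eIF2β-bound library or unselected library 1-1 and 2 falls without the eIF3a-bound or eIF3c-bound library. NOP1 (−0.69), NOP56 (0.61) and CBF5 (0.63) did not pass. Scaled to all areas together, 9 genes fell and 0 rose (86.3% and 4.02% of all genes).

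In 3′ UTRs, 1 of 12 genes rose and 1 fell (4% and 2.21% of 725 genes). NHP2, an H/ACA protein, had 49, 59 and 56 counts with a factor bound and 46, 28 and 27 without (1.09, SE 0.28, edgeR adjusted p = 0.0449). DBP10 had 1, 3 and 0 against 25, 10 and 11 (−3.11, SE 0.68, edgeR adjusted p = 0.0187). Each passed in 1 of the 6 omissions, that of the eIF3c-bound library, where 2 genes rose, and DESeq2 called 0. The block gave 2 rises and 1 fall (6.07% and 3.59% of all genes). NOP7 (33, 31 and 40 against 13, 19 and 17 counts) was the added rise (1.42, edgeR adjusted p = 0.0162). NOP1 (0.58), IMP3 (0.82), NOP56 (−0.28) and CBF5 (−0.998) did not pass. Scaled to all areas together, 7 genes fell and 0 rose (71.2% and 1.66% of all genes).

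Further genes of the pathway were counted in the same fits. The 118 further genes were those of RNA polymerase I subunits and RRN3, the RNA exosome and other 40S and 60S assembly factors. Of these, 25 fell and 13 rose in coding regions (11.8% and 14.4% of all genes), with a median log2 fold of −0.20. RNA polymerase I genes, with RRN3, had 2 of 8 down and 0 up, and exosome genes 1 of 14 down and 4 up. Other 40S factors had 10 of 41 down and 5 up, and other 60S factors 12 of 55 down and 4 up. At start codons 7 of 115 fell and 2 rose (5.12% and 1.34% of all genes), and in leaders 0 of 56 passed in either direction. The start codon over coding region ratio rose in 18 and fell in 17 of 115 (11.5% and 15.4% of all genes), with a median of 0.02, beside 0.09 for the 60 genes and −0.02 for all genes.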

How the data were processed

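The authors deposited footprint counts per gene and area as whole numbers, not normalized, per the file headers. Per the submitters' processing notes, the tools included TopHat2 2.1.0, Bowtie2 2.2.6, Bowtie 1.2.2 and CASAVA 1.8, with build R64. Strand, multiply mapped reads and duplicates are not described in the sources at hand, so intervals and tests cover counting error and library spread only. Of 5818 gene IDs, 5776 matched a RefSeq locus tag of build R64 and 42 did not.

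Each area was fitted with edgeR 4.0.16 (R 4.3.3, limma 3.58.1) after filterByExpr by group, with TMM scaling within the area. The start codon over coding region ratio was the interaction of area and group, with a term for each library. Each standard error is the log2 fold's size over the square root of F. DESeq2 1.42.0, no filter, library sizes of all 5 areas, a gene length offset, a replicate block and omission of each library were the alternatives. The length offset was a lowess trend, on log2 gene length, of each library's log2 CPM less the gene's mean. The omissions held no block. The ratios by factor used a pseudocount of 0.5 and were centred on the median gene of the area. The tests were checked on simulated data, where the test of the ratio recovered fewer of the set changes, and made a larger share of false calls, than the tests of single areas. The simulated counts held no differences between strains. Python 3.11.15, pandas 2.3.3, SciPy 1.17.1 and matplotlib 3.10.9 did the rest.

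Named genes are, per area, the 10 largest rises and falls past 0.05 whose libraries did not overlap between groups, plus NOP1, NOP56, CBF5, IMP3, RRP5, UTP10, NOP2 and REA1. Others were named after their values were seen. The members and the lists were chosen with earlier results of these data known. Library numbers mark the same strain in both groups, per the labels, and same-numbered libraries deviated together (r between 0.15 and 0.59 over the 5 areas), so they pair the samples. The 80S and mRNA libraries were not used.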

Additional observations from a re-analysis of the deposited data

How the results depend on the processing

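Depth limited leaders, stop codons and 3′ UTRs most, where 34, 11 and 12 of the 60 genes could be tested, and 3 libraries a group leave few residual degrees of freedom. Scaling decided the direction of area-wide counts. With library sizes of all 5 areas, rises and falls numbered 14 and 0 in leaders, 6 and 0 at start codons, 0 and 51 in coding regions, 0 and 9 at stop codons, 0 and 7 in 3′ UTRs, and 50 and 0 for start codon over coding region. The shares of all genes in the same fits stand beside these counts in the results above. The sign turned in coding regions for NOP10 (−0.0285), KRR1 (−0.11), RRP1 (−0.20) and NOP56 (−0.96), at stop codons for YTM1 (−0.52), NOP56 (−1.50) and CBF5 (−1.52), in 3′ UTRs for NHP2 (−0.26), NOP1 (−0.75) and IMP3 (−0.46), and for start codon over coding region for IMP3 (0.26), NOP10 (0.53), RRP1 (0.54), CIC1 (0.67) and SNU13 (0.73).

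The replicate block gave 1 rise and 1 fall in leaders, 7 and 11 at start codons, and 2 rises in 3′ UTRs. It ended no call among the named genes. The length offset gave 2 rises and 7 falls in coding regions, and 8 rises with the block as well. DESeq2 gave 1 rise at stop codons, 0 and 0 calls in 3′ UTRs, and turned CBF5 for start codon over coding region (−0.0074). Without the filter there was 1 fall at start codons, 1 rise and 3 falls at stop codons, and 2 and 2 calls in 3′ UTRs. The cause of these differences was not tested.

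Omitting 1 library at a time left 0 falls at start codons, between 3 and 7 rises in coding regions, between 1 and 2 rises and between 1 and 2 falls at stop codons, between 0 and 2 rises and between 0 and 1 falls in 3′ UTRs, and between 3 and 6 falls for start codon over coding region. Omission also turned the sign of small, uncalled values. In leaders NOP56 ranged between −0.14 and 0.24, RRP5 between −0.0114 and 0.39 and NOP2 between −0.045 and 0.58, and at start codons UTP10 between −0.59 and 0.15. In coding regions NOP1 ranged between −0.43 and 0.0078 and NOP56 between −0.22 and 0.29, and for start codon over coding region NOP56 between −0.13 and 0.25 and CBF5 between −0.15 and 0.21.

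Without NOP1 and SNU13, tried after seeing the data, the factor-bound libraries' leader share exceeded the unselected by 7.38 percentage points in place of 20.1, and their start codon share by 19.7 in place of 4.88. Pairing by strain, also added then, left the mean differences as they were.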
